A study of Danio rerio with 18 samples.

Results

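Gene expression in a midbrain nucleus of sham-operated zebrafish (Danio rerio), that of the medial longitudinal fascicle (NMLF), was compared between 11 d and 4 h after surgery. The comparison used 6 of the 18 arrays of the study, the 3 titled as sham controls at 11 d and the 3 titled as sham controls at 4 h. Its members were chosen by these titles alone and not by any measured value. The NMLF region was cut out of brain sections by laser capture, and its RNA was amplified before it was put on Affymetrix zebrafish arrays, 1 array per sample. Both groups had sham surgery, which the labels do not describe further, and the 18 samples include no group without surgery. Fish were kept in a cycle of 14 h light and 10 h dark at 28 C. The labels give no strain, age, sex or time of day, and do not say which fish a sample came from or whether fish were pooled, so a p-value here reflects the spread between samples, which may be technical. The other arrays, 3 each of sham fish at 12 h and of fish with a transected cord at 4 h, 12 h and 11 d, entered the same model and share its estimate of the spread. The study set its times so that early events could be told from those of the regrowth period. The comparison of the sham groups shows what differs in the NMLF between the hours after a sham operation and the state 11 d later.

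The NMLF is a midbrain group of neurons with axons that run down the spinal cord and take part in driving swimming. Surgery and handling activate the stress axis of fish, in which cortisol binds the glucocorticoid receptor and turns on genes such as fkbp5 and klf9. Neuronal activity and injury turn on early response transcription factors of the fos, jun, egr and nr4a families within minutes to hours. Protein damage and warmth turn on heat shock chaperones, and the zebrafish clock genes follow light and time of day in most tissues. Because captured tissue holds several cell types, fewer cells of a type and less RNA per cell cannot be told apart in any value below.

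No probe set passed the test between 4 h and 11 d in the sham NMLF, where limma called 0 of 15502 probe sets (0%) at a Benjamini-Hochberg adjusted p under 0.05. It also called 0 of the brightest 10335 (0%), a setting that leaves out dim probe sets near the floor of 16 signal units. At an unadjusted p under 0.05 there were 802 of 15502 probe sets (5.17%), 461 of them higher and 341 lower at 11 d, and 638 among the brightest. The smallest adjusted p was 0.373. The 3 arrays of 11 d all lay above the 3 of 4 h in 487 probe sets (3.14%), and all below them in 430 (2.77%). Counting 1 probe set for each of 8793 genes, these were 333 genes (3.79%) and 259 genes (2.95%), the background against which the gene lists below are read. A probe set of the brightest group had a median SE of 0.30 on its log2 change.

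The call of 0 rested on which arrays were used. Leaving out sham replicate 1, 2 or 3 of 4 h gave 4, 0 and 1 called probe sets, and leaving out replicate 1, 2 or 3 of 11 d gave 3, 1 and 10. Without 11 d replicate 3, the 10 called probe sets included serpinh1b (limma adjusted p = 2.18e-05), rbm4.2 (0.00994), ifrd1 and gata1a (0.0468 each). For serpinh1b all sham 4 h, sham 12 h and transected 4 h arrays were at the floor of 16, where no spread can be seen, and the array left out was at the floor too. Its adjusted p may therefore be too small. With the brightest 10335 probe sets and all arrays, none passed (smallest limma adjusted p = 0.542).

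Some arrays stood apart within their group. On the first principal component, which held 30.2% of the variance of the brightest probe sets over the 18 arrays, sham replicates 1 to 3 scored -21.2, 46.9 and 11.9 at 4 h and -28.1, -40.0 and 19.8 at 11 d. Arrays of 1 sham group correlated at 0.936 to 0.976 and arrays of different sham groups at 0.913 to 0.976, so the times were not set apart on this axis (exact permutation test of the scores, two-sided, p = 0.4, where 3 against 3 arrays cannot go below 0.1). The geometric mean of 9 hybridization control probe sets was 2592 on 4 h replicate 2 and 921 to 1253 on the other 5 sham arrays. The signal of the GAPDH control at its 3' end over that at its 5' end, a measure that is larger in broken RNA, was 1.53, 1.78 and 1.64 at 4 h and 2.095, 2.83 and 1.39 at 11 d (exact permutation test of the log ratios, two-sided, p = 0.5). Of 8 measured defining neuron markers, 8 lay above the floor on all 6 arrays. The gonadotropin-releasing hormone gene gnrh2, expressed in the midbrain tegmentum, had signals of 8412, 6402 and 6746 at 4 h and 5812, 5230 and 5756 at 11 d.

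Glucocorticoid-responsive genes had lower signals at 11 d in 17 of 29 measured genes and higher signals in 10, with a median log2 change of -0.25, beside 0 over all 8793 genes. None passed the test, and 3 of the 29 lay below 4 h on every array, beside a background of 2.95%. The cochaperone fkbp5, a direct glucocorticoid receptor target, had signals of 2421, 1512 and 2302 at 4 h and 833, 1464 and 1666 at 11 d. Replicates 1 and 3 of 4 h were above all 11 d arrays, but replicate 2 of 4 h lay among them, and the log2 change was -0.68 ± 0.31 (SE, n = 3 and 3 arrays; limma adjusted p = 0.836). The transcription factor klf9 had signals of 667, 479 and 713 at 4 h and 201, 330 and 561 at 11 d, a change of -0.87 ± 0.44. Replicates 1 and 2 of 11 d were below every 4 h array, and replicate 3 lay among them.

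The transcription factor cebpb of the acute stress response had signals of 113, 171 and 78.4 at 4 h and 72.2, 70.0 and 60.2 at 11 d. Its groups did not overlap, with a log2 change of -0.77 ± 0.26 (limma adjusted p = 0.836). The growth arrest gene gadd45ba had signals of 377, 390 and 347 at 4 h and 246, 167 and 343 at 11 d, also without overlap (-0.62 ± 0.29). The signal of 11 d replicate 3 was close to the lowest 4 h array. The NF-kappaB inhibitor nfkbiab (-0.47 ± 0.25), the zinc finger factor zbtb16a (-0.91 ± 0.57) and cebpd (-0.62 ± 0.48) had overlapping groups. The phosphatase dusp1 went the other way, with 65.9, 25.9 and 62.6 at 4 h and 67.1, 71.1 and 68.3 at 11 d (0.54 ± 0.30), its low value being that of 4 h replicate 2 and its groups just apart. In transected fish, measured on other arrays, limma called cebpb (-1.33 ± 0.26, adjusted p = 0.0342), gadd45ba (-1.46 ± 0.29, 0.0305) and nfkbiab (-1.31 ± 0.25, 0.0342) lower at 11 d among the brightest probe sets, and dusp1 had a change of -1.07 ± 0.30 (0.150). Over all probe sets cebpb (limma adjusted p = 0.0659), gadd45ba (0.0701) and nfkbiab (0.0659) did not pass. A second gadd45ba probe set gave -1.23 in transected fish (0.101 among the brightest) and -0.46 ± 0.32 in sham fish. The difference between the sham and the transected change did not pass for any of these 4 genes.

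The median of the glucocorticoid list moved with single arrays. It was -0.066 without 4 h replicate 1, -0.070 without 11 d replicate 1 and -0.088 without 11 d replicate 3. On the deposited scale without quantile normalization it was -0.045, where the median of the brightest probe sets was itself 0.23. In transected fish the median of the same 29 genes was -0.43, with 21 lower and 6 higher.

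**Figure D1:**
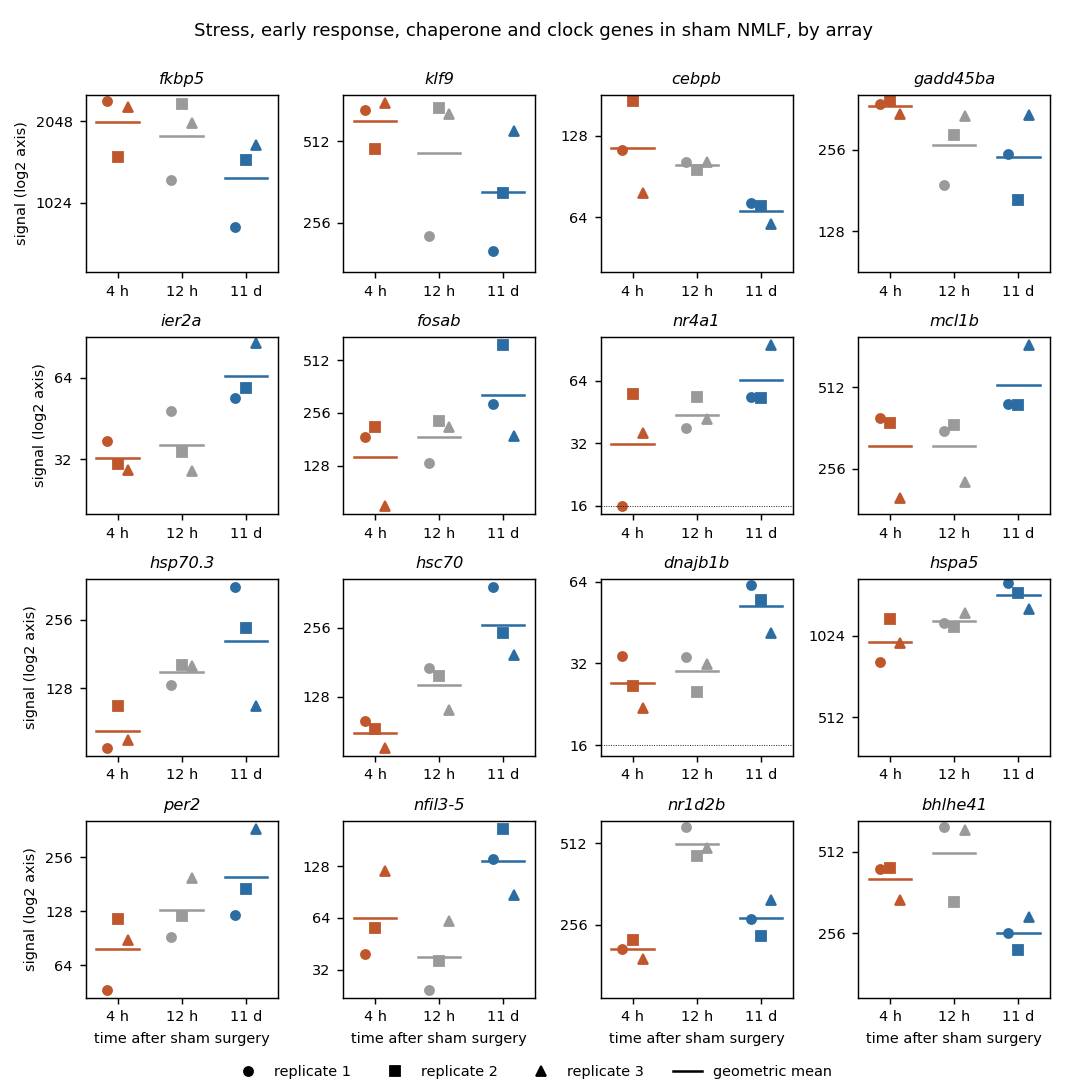
Signal (log2 axis) on each sham array at 4 h, 12 h and 11 d for 16 stress, early response, chaperone and clock genes; each point is an array, its shape the replicate number, the line the geometric mean and the dotted line the floor of 16. The 3 arrays of 11 d lie above the 3 of 4 h for ier2a, mcl1b, hsc70, dnajb1b, hspa5, per2 and nr1d2b and below them for cebpb, gadd45ba and bhlhe41, and none of these genes passed the test.

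Genes of the early response list, most of them transcription factors, were as a list not high at 4 h relative to 11 d. Of 26 measured genes 17 had higher and 6 lower signals at 11 d, with a median log2 change of 0.20. On every array 2 lay above 4 h and 1 below, beside backgrounds of 3.79% and 2.95%. Those above were ier2a and mcl1b, which is no transcription factor and is also on the p53 and survival list. The factor ier2a had signals of 37.3, 30.7 and 29.1 at 4 h and 53.9, 58.7 and 85.6 at 11 d. All 11 d arrays were above all 4 h arrays, and the log2 change was 1.01 ± 0.21 (unadjusted p = 0.00044; limma adjusted p = 0.556). The AP-1 gene fosab had 185, 213 and 75.3 at 4 h and 288, 626 and 190 at 11 d (1.17 ± 0.61), with overlap, since 11 d replicate 3 lay below 4 h replicate 2. Its other 3 probe sets gave 0.50, -0.15 and 0.38. The nuclear receptor nr4a1 had 16, 55.2 and 35.8 at 4 h and 53.5, 52.9 and 95.3 at 11 d (1.03 ± 0.49), where 4 h replicate 1 sat at the floor.

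The survival gene mcl1b, a member of the bcl2 family, had 393, 379 and 199 at 4 h and 442, 441 and 734 at 11 d, without overlap (0.76 ± 0.34; limma adjusted p = 0.836). The AP-1 repressor jdp2b had 85.0, 68.6 and 60.8 at 4 h and 44.5, 55.4 and 53 at 11 d, all lower (-0.48 ± 0.20). The AP-1 gene junbb had 1599, 1834 and 1005 at 4 h and 750, 840 and 1432 at 11 d (-0.57 ± 0.34), where 4 h replicate 3 lay below 11 d replicate 3. The activity-dependent genes egr1 (0.48 ± 0.30, with a second probe set at -0.27 ± 0.55), egr4 (0.76 ± 0.43) and npas4a (0.47 ± 0.53) had overlapping groups. In transected fish npas4a had a change of -1.87 ± 0.53 (limma adjusted p = 0.101 among the brightest probe sets), and its sham and transected changes did not differ past the threshold (limma adjusted p = 0.770 among the brightest probe sets).

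Chaperones had higher signals at 11 d in 20 of 32 genes and lower signals in 10 (median 0.17, beside -0.0026 for the same genes in transected fish). Of the 32, 5 lay above 4 h on every array, beside a background of 3.79%, and 1 below. The cytosolic chaperone hsc70 had signals of 100, 92.8 and 76.8 at 4 h and 384, 243 and 194 at 11 d. The groups did not overlap, and the change was 1.56 ± 0.47 (limma adjusted p = 0.823). A second hsc70 probe set gave 0.47 ± 0.41. The inducible hsp70.3 had 70.15, 107 and 76.1 at 4 h and 357, 235 and 107 at 11 d, a change of 1.32 ± 0.37 (limma adjusted p = 0.812). Replicate 3 of 11 d was level with 4 h replicate 2, and the probe set is of the kind that may also detect related sequences. The cochaperone dnajb1b had 33.98, 26.4 and 22.0 at 4 h and 62.3, 54.9 and 41.4 at 11 d, without overlap (0.95 ± 0.25).

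The collagen chaperone serpinh1b was at the floor of 16 on the 3 arrays of 4 h and had 57.7, 44.4 and 16 at 11 d. On the floored scale its mean was 2.16-fold higher at 11 d (limma adjusted p = 0.823). Since replicate 3 of 11 d was at the floor as well, this value is not a lower bound. The ER chaperone hspa5 had 817, 1178 and 963 at 4 h and 1604, 1473 and 1288 at 11 d, all higher (0.57 ± 0.21). The ER disulfide isomerase pdia4 had 179, 180 and 210 at 4 h and 526, 350 and 237 at 11 d, also all higher (0.90 ± 0.32). Over the whole unfolded protein response list, 13 of 24 genes were higher and 11 lower, with a median of 0.012, and pdia6 (-0.60 ± 0.30) and the ER stress kinase eif2ak3 (-0.91 ± 0.51, with other probe sets at -0.62 and 0.42) had lower means at 11 d. The myosin chaperone unc45b had 59.5, 61.1 and 58.7 at 4 h and 31.2, 34.5 and 46.5 at 11 d, all lower (-0.70 ± 0.21). The heat shock factor hsf1 had 52.2, 282 and 138 at 4 h and 61.2, 29.1 and 149 at 11 d (-0.98 ± 0.79), high on 4 h replicates 2 and 3 and on 11 d replicate 3. In each of hsc70, hsp70.3, dnajb1b, hspa5 and pdia4 the lowest 11 d array was replicate 3.

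Clock genes were split, with 13 of 28 higher and 14 lower (median -0.028). On every array 4 lay above 4 h and 2 below, beside backgrounds of 3.79% and 2.95%. The light-induced period gene per2 had 46.7, 116 and 88.9 at 4 h and 123, 171 and 369 at 11 d, without overlap (1.33 ± 0.52; limma adjusted p = 0.836), but its second probe set gave 0.13 ± 0.57. The repressor nr1d2b had 209, 226 and 192 at 4 h and 268, 234 and 316 at 11 d (0.38 ± 0.15), while its dimmer probe set gave -1.27 ± 0.84. The repressor bhlhe40 had 218, 201 and 261 at 4 h and 324, 380 and 264 at 11 d (0.50 ± 0.24), and its relative bhlhe41 had 444, 446 and 341 at 4 h and 257, 222 and 294 at 11 d (-0.67 ± 0.30). Both pairs of groups were apart, in opposite directions. The repressor nfil3-5 had 39.2, 56.1 and 121 at 4 h and 141, 211 and 86.8 at 11 d (1.095 ± 0.47), with overlap.

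The geometric means at 12 h for nr1d2b (509) and bhlhe40 (438) were above both other times, and that of nfil3-5 (37.8) was below both. Sham 12 h arrays are no part of the test, and their GAPDH ratios of 3.15 to 5.40 were above those of the other 2 sham times. The clock activators clockb (-0.91 ± 0.64) and npas2 (-0.78 ± 0.78), the cryptochrome cry2 (-0.87 ± 0.82, with a second probe set at 0.13 ± 0.25) and the PAR-bZIP factor tefb (-1.12 ± 0.61) had lower means at 11 d. In these 4 genes 4 h replicate 2 was the highest of the 6 arrays and 11 d replicate 3 second, the same pair of arrays that scored highest on the first principal component. The part of clock time in these values was not tested, since the labels give no time of day.

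Among genes brighter than the median without overlap, the smallest unadjusted p-values at the higher side belonged to the actin crosslinker flna, the RNA-binding proteins rbm4.2 and rbmx, the cell cycle gene cdk2ap2 and the splicing-factor kinase clk4a. For flna the signals were 226, 228 and 238 at 4 h and 399, 370 and 352 at 11 d. The spread within each time was small, and the 1.62-fold difference (0.69 ± 0.11) had an unadjusted p of 3.8e-05 and a limma adjusted p of 0.373. For rbmx the signals were 182, 172 and 196 at 4 h and 504, 434 and 396 at 11 d, 2.42-fold (1.27 ± 0.23; limma adjusted p = 0.373). A second rbmx probe set, however, gave -0.71 ± 0.44, so the 2 probe sets disagreed in sign. For rbm4.2 they were 84.4, 87.3 and 111 at 4 h and 173, 221 and 134 at 11 d (0.89 ± 0.15; limma adjusted p = 0.373), and the second probe set gave 0.38 ± 0.30.

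The kinase gene clk4a, which phosphorylates splicing factors, had 156, 178 and 152 at 4 h and 306, 370 and 255 at 11 d (0.93 ± 0.19; limma adjusted p = 0.556). It was called higher at 11 d in transected fish (1.09 ± 0.19; limma adjusted p = 0.0448). The gene cdk2ap2 had 74.8, 114 and 97.3 at 4 h and 166, 147 and 157 at 11 d (0.74 ± 0.15), and -0.20 ± 0.15 in transected fish. The cdk2ap2 difference between treatments did not pass (limma adjusted p = 0.568 over all probe sets). Further genes of this side were zgc:56095 (0.92 ± 0.21), the Cdc42 effector cdc42ep4a (1.08 ± 0.26), the linear-ubiquitin protease family member otulinb (0.69 ± 0.17), the mediator subunit med18 (0.57 ± 0.13) and the ubiquitin-conjugating enzyme ube2h (0.53 ± 0.13). Their limma adjusted p was 0.758 each. The 3 arrays of 11 d lay above the 3 of 4 h in each, since this was part of how they were picked.

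Under the same brightness and overlap rule, the lower side was led by ifrd1, a transcriptional coregulator induced by growth and stress signals, with 1518, 1607 and 1364 at 4 h and 823, 486 and 1095 at 11 d. The change was -0.98 ± 0.22 (limma adjusted p = 0.658), and 11 d replicate 3 was nearest to 4 h. The farnesyltransferase subunit fntb had 135, 156 and 195 at 4 h and 97.3, 86.7 and 123 at 11 d (-0.66 ± 0.15; limma adjusted p = 0.658). The growth factor igf1 had 128, 302 and 130 at 4 h and 75.8, 77.7 and 82.1 at 11 d (-1.12 ± 0.30; limma adjusted p = 0.812). Its 11 d arrays were close together and its highest value was that of 4 h replicate 2. In transected fish igf1 was called lower at 11 d among the brightest probe sets (-1.46 ± 0.30; limma adjusted p = 0.0336) and not over all (0.0815).

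The retinol carrier rbp4 had 121, 52.5 and 65.6 at 4 h and 29.6, 32.2 and 28.2 at 11 d (-1.32 ± 0.34), 2.49-fold higher at 4 h, against 0.58 ± 0.34 in transected fish. The rbp4 difference between treatments did not pass (limma adjusted p = 0.833 over all probe sets and 0.426 among the brightest). The relaxin-family peptide receptor rxfp2a had 276, 205 and 213 at 4 h and 91.6, 60.0 and 145 at 11 d (-1.31 ± 0.35). The kinase mknk1, which acts on the translation factor eIF4E, had 167, 85.0 and 169 at 4 h and 58.8, 67.9 and 67.7 at 11 d (-1.05 ± 0.28). The others of this side were the membrane protease adam10b (-0.96 ± 0.24), the phosphatase subunit ppp4r4 (-0.79 ± 0.21), the lipid phosphatase mtmr4 (-0.76 ± 0.19), the uridine kinase uckl1b (-0.73 ± 0.19) and the splicing factor srsf1b (-0.67 ± 0.18), the last with a second probe set at 0.19 ± 0.43. Their limma adjusted p-values were 0.771 to 0.812.

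**Figure D2:**
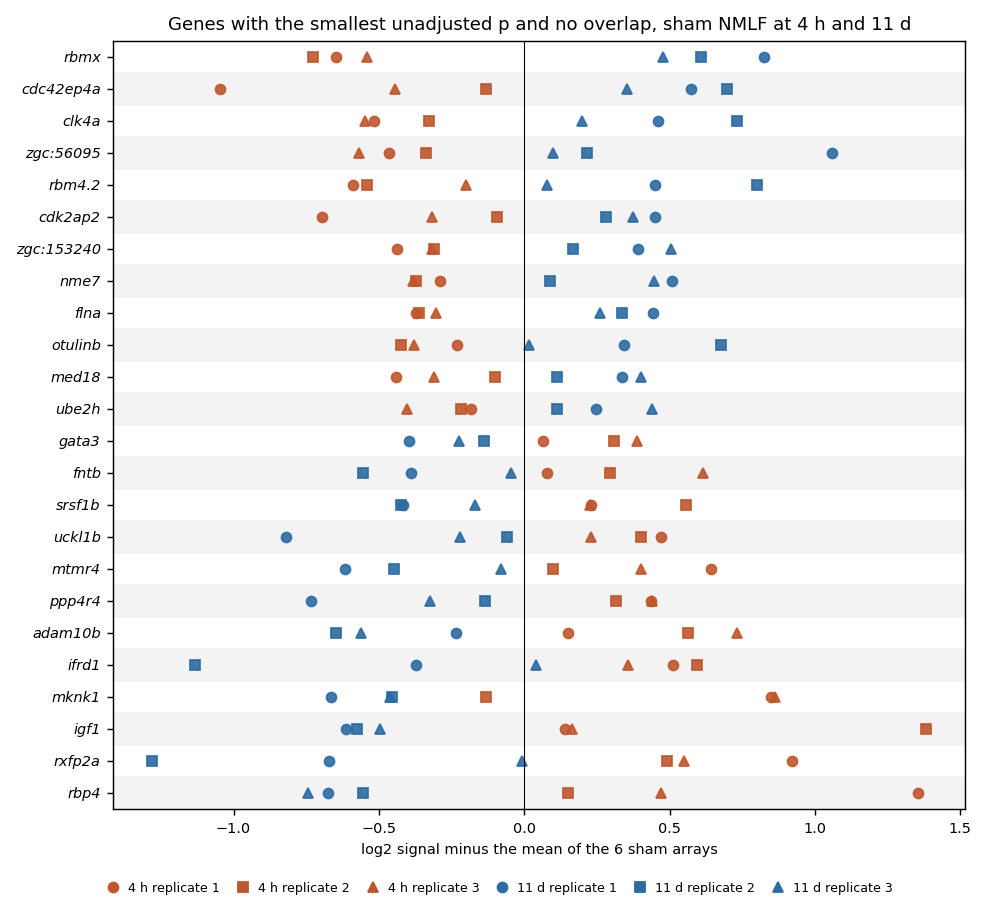
Log2 signal on each of the 6 sham arrays minus the mean of the 6, for the 12 genes per direction with the smallest unadjusted p among genes brighter than the median without overlap; colour gives the time and shape the replicate number. The groups are apart in every gene because that was part of the choice, and the 3 arrays of each time lie close together for flna.

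Cholesterol synthesis genes had lower signals at 11 d in 10 of 13, with a median of -0.21, beside -1.45 and 12 of 13 in transected fish. In the sham fish none was called, and 2 lay below 4 h on every array, beside a background of 2.95%. Squalene synthase, fdft1, had 326, 522 and 283 at 4 h and 263, 171 and 195 at 11 d (-0.82 ± 0.24; limma adjusted p = 0.823). The enzyme gene hmgcs1 had 778, 854 and 1087 at 4 h and 770, 595 and 491 at 11 d (-0.56 ± 0.33), its lowest 4 h array close to its highest 11 d array. The sterol sensor insig1 had 236, 184 and 394 at 4 h and 212, 188 and 70.9 at 11 d (-0.87 ± 0.44), and the sterol carrier stard4 had a change of -0.70 ± 0.30. The list median was -0.042 without 11 d replicate 3, the array with the lowest insig1 and hmgcs1. The transected changes were -1.65 ± 0.24 for fdft1, -2.42 ± 0.33 for hmgcs1 and -2.44 ± 0.44 for insig1, all called by limma (adjusted p = 0.0174, 0.0152 and 0.0471), and the difference from the sham change did not pass for any of the 3 (limma adjusted p = 0.802 for hmgcs1 and 1 for the others). With same-numbered arrays of a time as a block, the difference for hmgcs1 passed among the brightest probe sets (limma adjusted p = 0.0421) and not over all (0.241).

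Of 27 lipid and ketone metabolism genes, 11 were higher and 12 lower, with a median of 0, and none passed. The carnitine palmitoyltransferase cpt2 had 169, 172 and 172 at 4 h and 289, 250 and 232 at 11 d, without overlap (0.58 ± 0.17; limma adjusted p = 0.823), while a second probe set gave -0.19 ± 0.43. The trifunctional protein subunit hadhaa had 265, 121 and 240 at 4 h and 370, 386 and 318 at 11 d (0.86 ± 0.39), the largest rise of the list. The short-chain dehydrogenase acads is not on the list and was chosen after its values were seen. It had 77.5, 86.2 and 110 at 4 h and 144, 255 and 182 at 11 d (1.06 ± 0.31). The desaturase scd, which makes unsaturated fat, was lower, with 62.2, 131 and 69.0 at 4 h and 58.0, 35.9 and 48.7 at 11 d (-0.83 ± 0.36).

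Respiratory complex I subunits were higher at 11 d in 23 of 31 genes (median 0.13) and lower in 8. Groups did not overlap in 5 of the higher ones, beside a background of 3.79%. In transected fish 30 of the 31 were lower (median -0.28). Of the genes of complexes II to V, 28 of 39 were higher in sham fish (median 0.077) and 33 of 39 lower in transected fish (median -0.25). By array, the sham times overlapped in both lists. The median log2 deviation of complex I genes was -0.15 on 11 d replicate 2, below 4 h replicates 1 (0.012) and 2 (-0.078). On 11 d replicates 1 (0.18) and 3 (0.072) it was above every 4 h array. For complexes II to V, 11 d replicate 2 (-0.079) was level with the lowest 4 h array. Replicates 1 (0.19) and 3 (0.092) of 11 d were above every 4 h array. The subunit ndufb6 had 719, 630 and 738 at 4 h and 1230, 1036 and 823 at 11 d (0.55 ± 0.21; limma adjusted p = 0.836), although its second probe set, near the floor, gave -0.34. The complex III core gene uqcrc2a had 214, 258 and 310 at 4 h and 476, 323 and 399 at 11 d (0.61 ± 0.27), with a second probe set at -0.11 ± 0.25. None of the 70 genes of these lists passed in either treatment, and the difference between treatments was tested per gene only, with no call among them. Cytosolic ribosomal proteins were lower in 38 and higher in 32 of 70 genes (median -0.039), and proteasome subunits were higher in 19 of 34 (median 0.075).

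**Figure D3:**
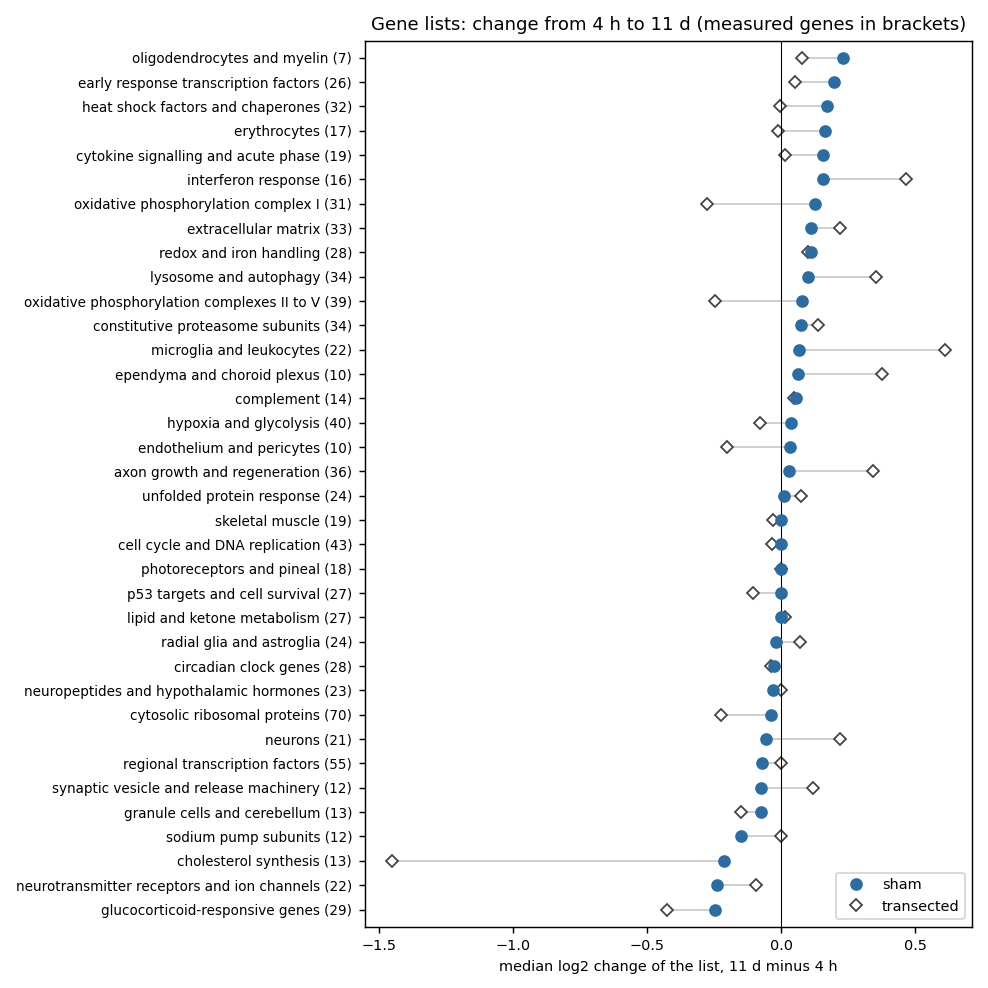
Median log2 change from 4 h to 11 d for each gene list with 7 or more measured genes, with the number of genes in brackets; filled circles are sham arrays and open diamonds transected arrays. Sham medians run from -0.25 (glucocorticoid-responsive genes) to 0.23 (oligodendrocytes), while transected medians run from -1.45 (cholesterol synthesis) to 0.61 (microglia and leukocytes).

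Several neuronal genes had lower signals at 11 d, while the neuron marker list was split, 9 of 21 higher and 12 lower. Of those named next, gata2a, gad1b and zic2a were chosen after their values were seen. The GATA factor gata3, which specifies inhibitory neurons in the midbrain and hindbrain, had 410, 485 and 513 at 4 h and 298, 356 and 335 at 11 d, without overlap (-0.51 ± 0.12; unadjusted p = 0.0012, limma adjusted p = 0.758). Its partner gata2a had 322, 568 and 480 at 4 h and 221, 251 and 374 at 11 d (-0.69 ± 0.32), with overlap. The GABA-synthesis enzymes gad2 (714, 810 and 1041 at 4 h, 476, 435 and 618 at 11 d; -0.74 ± 0.27) and gad1b (2213, 2752 and 2406 at 4 h, 1790, 2006 and 2119 at 11 d; -0.32 ± 0.16) had groups that did not overlap. In transected fish gata3 was at 0.32 ± 0.12, gata2a at 0.04 ± 0.32, gad2 at -0.64 ± 0.27 and gad1b at 0.36 ± 0.16, and no difference between treatments passed. The zinc finger factor zic2a had 1083, 939 and 977 at 4 h and 582, 765 and 641 at 11 d (-0.60 ± 0.21). A second zic2a probe set, near the floor, gave -0.21 ± 0.23.

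Of 55 regional transcription factors 33 were lower and 13 higher (median -0.070). On every array 4 lay below 4 h and 1 above, beside backgrounds of 2.95% and 3.79%. The isthmus gene pax2a (-0.99 ± 0.64) and the motor neuron factor isl1a (0.77 ± 0.50) had overlapping groups. Among ion channel and transmitter receptor genes, 18 of 22 had lower and 3 higher signals (median -0.24). In 0 of the 22 did the groups not overlap, beside backgrounds of 2.95% below and 3.79% above 4 h. The glycine receptor subunit glra1 had 38.6, 257 and 146 at 4 h and 37.9, 45.6 and 77.6 at 11 d (-1.15 ± 0.79). The adrenergic receptor adra2c had 143, 50.1 and 156 at 4 h and 53, 35.9 and 55.1 at 11 d (-1.14 ± 0.45). The list median was -0.057 without 4 h replicate 2, -0.10 without 11 d replicate 2 and -0.48 without 11 d replicate 3.

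Synaptic vesicle genes were lower in 9 of 12, among them sypa (1443, 1410 and 1898 at 4 h, 1102, 1240 and 1196 at 11 d; -0.41 ± 0.18) and the active-zone gene rims2a (305, 293 and 363 at 4 h, 249, 252 and 247 at 11 d; -0.35 ± 0.12), both without overlap. The vesicular acetylcholine transporter slc18a3a, a marker of cholinergic neurons, was higher, with 442, 232 and 335 at 4 h and 552, 1033 and 434 at 11 d (0.95 ± 0.34). Sodium pump subunits were lower in 7 of 12 and higher in 3. The neuronal alpha subunit atp1a3a had 1935, 4423 and 2250 at 4 h and 1238, 972 and 2400 at 11 d (-0.91 ± 0.47), with 11 d replicate 3 in the range of 4 h, and its second probe set gave -0.67 ± 0.22. The neuron marker list as a whole was higher in 9 and lower in 12 of 21 genes (median -0.058), with a summed signal of 33663 to 41724 at 4 h and 32457 to 39875 at 11 d.

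Axon growth genes were even, 18 of 36 higher and 18 lower (median 0.030), where in transected fish 31 were higher and 4 lower (median 0.34). The growth cone gene gap43 had 971, 1860 and 1786 at 4 h and 1309, 1627 and 2057 at 11 d, overlapping throughout (0.15 ± 0.28). It was called higher at 11 d in transected fish among the brightest probe sets (1.35 ± 0.28; limma adjusted p = 0.0451) and not over all (0.0909). The actin-binding thymosin gene tmsb had 1456, 1290 and 1631 at 4 h and 1814, 3252 and 2068 at 11 d, without overlap (0.66 ± 0.23; limma adjusted p = 0.836), beside 1.503 ± 0.23 in transected fish, which was called (0.0179). The difference between the sham and the transected change did not pass for gap43 or tmsb, over all probe sets or among the brightest. The surface glycoprotein thy1 had 63.9, 64.8 and 86.8 at 4 h and 65.2, 135 and 167 at 11 d (0.68 ± 0.42), beside 2.93 ± 0.42 in transected fish (limma adjusted p = 0.0157). The difference for thy1 had a limma adjusted p of 0.426 among the brightest probe sets. With same-numbered arrays of a time as a block it was 0.0470 there and 0.299 over all probe sets.

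Cytokine and complement genes gave changes in both directions. The T-cell and dendritic-cell chemokine family member ccl19a.1 had 112, 165 and 64.6 at 4 h and 574, 227 and 172 at 11 d, without overlap (1.41 ± 0.51; limma adjusted p = 0.836). The cytokine feedback inhibitors socs3a (730, 425 and 557 at 4 h, 265, 432 and 304 at 11 d; -0.77 ± 0.32) and socs3b (390, 201 and 186 at 4 h, 198, 144 and 83.6 at 11 d; -0.87 ± 0.47) had lower means with overlap. The transcription factor stat3 was at -0.81 ± 0.56. The complement protease cfd had 93.7, 48.3 and 54.7 at 4 h and 447, 102 and 124 at 11 d (1.51 ± 0.50), all higher. The terminal component c6.2 had 55.8, 55.6 and 83.9 at 4 h and 16, 29.8 and 29.0 at 11 d, all lower (-1.41 ± 0.40, limma adjusted p = 0.812). In transected fish its change was 0.68 ± 0.40. The c6.2 difference had a limma adjusted p of 0.426 among the brightest probe sets. With same-numbered arrays of a time as a block it was 0.0412 there and 0.264 over all. The complement regulator cfi was lower as well (-0.69 ± 0.33). By list, 11 of 19 cytokine genes were higher (median 0.15), 9 of 14 complement genes (median 0.056) and 10 of 16 interferon response genes (median 0.15).

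Among matrix genes, 19 of 33 were higher and 12 lower (median 0.11), and the collagenase mmp13a had 233, 321 and 91.8 at 4 h and 115, 16 and 16 at 11 d (-2.62 ± 0.96; limma adjusted p = 0.836). Its 11 d replicate 1 lay within the range of 4 h and the other 2 arrays were at the floor. Of 27 p53 and survival genes, 13 were higher and 13 lower. On every array 5 lay above and 3 below 4 h, beside backgrounds of 3.79% and 2.95%. The sestrin sesn3 had 32.9, 34.9 and 43.0 at 4 h and 88.5, 88.4 and 43.5 at 11 d (0.93 ± 0.27), the bcl2 family gene bcl2l10 had 423, 313 and 383 at 4 h and 512, 549 and 458 at 11 d (0.45 ± 0.16), and the apoptosome gene apaf1 had 34.2, 99.1 and 38.9 at 4 h and 32.5, 21.5 and 24.4 at 11 d (-0.98 ± 0.46, with a second probe set at -0.016 ± 0.24). Cell cycle genes were even (16 of 43 higher, 17 lower), with the cyclin ccnd1 at 94.1, 76.6 and 75.5 at 4 h and 167, 159 and 106 at 11 d (0.79 ± 0.27), and 0.23 ± 0.23 by its second probe set.

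Markers of other cell types were compared in the same way. Erythrocyte genes were higher at 11 d in 12 of 17 and lower in 5 (median 0.16), with changes from -0.66 to 1.35. Their summed signals were 12899, 7704 and 8205 at 4 h and 16125, 12405 and 9106 at 11 d. The heme-synthesis enzyme of red cells, alas2, had 81.1, 99.1 and 101 at 4 h and 349, 171 and 184 at 11 d, without overlap (1.25 ± 0.34, limma adjusted p = 0.812). In transected fish its change was -0.81 ± 0.34. The alas2 difference had a limma adjusted p of 0.426 among the brightest probe sets. With same-numbered arrays of a time as a block it was 0.0421 there and 0.241 over all. The red-cell carbonic anhydrase cahz had 253, 186 and 208 at 4 h and 415, 338 and 265 at 11 d (0.64 ± 0.27), while the anion exchanger slc4a1a (1.35 ± 0.54), the erythroid factor gata1a (0.55 ± 0.23) and the globins hbba2 (0.70 ± 0.75) and hbaa1 (0.31 ± 0.31) had overlapping groups. The erythrocyte genes named here all had higher means at 11 d, and none of the 5 lower ones of the list is named. Of those named, cahz, gata1a and hbaa1 were chosen after their values were seen. Of the 7 oligodendrocyte genes 5 were higher and 2 lower, and 0 had groups without overlap, beside backgrounds of 3.79% above and 2.95% below 4 h. Their summed signals were 17167, 12662 and 16962 at 4 h and 23478, 25771 and 17762 at 11 d, without overlap. Myelin basic protein, mbpa, made up most of the sums, with 15468, 11142 and 15468 at 4 h and 21720, 24410 and 15468 at 11 d (0.54 ± 0.28). Its 11 d replicate 3 was level with 4 h replicates 1 and 3. Microglia and leukocyte genes were higher in 14 of 22 and lower in 8 (median 0.067, beside 0.61 in transected fish). Their summed signals were 11765, 8235 and 6746 at 4 h and 8799, 10611 and 9294 at 11 d. Changes in this list ran from -0.68 ± 0.76 (lyz, near the floor) to 0.79 ± 0.37 (ccl34b.1), both with overlapping groups. The leukocyte actin regulator coro1a, chosen after its values were seen, had 480, 437 and 405 at 4 h and 646, 701 and 542 at 11 d (0.51 ± 0.18). Radial glia genes were even, 12 of 24 in each direction. Of 10 endothelium and pericyte genes, 5 were higher and 5 lower (median 0.035). The endothelial junction gene cldn5a had 30.1, 29.7 and 54.8 at 4 h and 16, 27.5 and 19.2 at 11 d, all lower (-0.85 ± 0.29). These signals were near the floor, and its other probe sets were at the floor on all 6 arrays. The part of cell composition, RNA quality and the arrays that stood apart in the gene values above was not tested.

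The same time contrast in transected fish, which rests on 6 other arrays, gave 39 called probe sets (0.252%), 17 higher (0.11%) and 22 lower (0.142%) at 11 d. Among the brightest it gave 52 (0.503%), 22 higher (0.213%) and 30 lower (0.29%). Same-numbered sham and transected arrays deviated from their group means together, with correlations of 0.268 to 0.638 at 4 h and 0.244 to 0.665 at 11 d over the brightest probe sets. At 12 h the correlations were 0.109, -0.014 and 0.141. The titles give no pairing beyond these numbers. A shared direction of the sham and transected changes may also come from these shared deviations. Of the 52, 46 had the same sign in the sham fish, beside 64.6% of the brightest probe sets. They were chosen for a large transected change, so a smaller sham change is given by the choice. The 30 lower ones had a median log2 change of -1.69 in transected fish and of -0.56 in sham fish, and 29 of them were below 0 in sham fish. The 22 higher ones had medians of 1.97 and 0.38, and 17 were above 0 in sham fish. Over all 15502 probe sets, 6696 were higher and 6245 lower at 11 d in sham fish. Of the same 52, 14 did not overlap between the sham times in the same direction, beside 3.14% of all probe sets above and 2.77% below 4 h. Over all probe sets, 75 lay above and 92 below 4 h on every array in both treatments, while 13 were above in sham and below in transected fish and 4 the reverse. The 75 were 15.4% of the 487 in sham fish and 10.6% of the 705 in transected fish (4.55% of all probe sets), and the 92 were 21.4% of 430 and 11.2% of 822 (5.3%).

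A test of the difference between the sham and the transected change called 4 of 15502 probe sets (0.0258%), 4 with a lower sham change (0.0258%) and 0 with a higher one (0%). It called 4 of the brightest 10335 (0.0387%), 1 higher (0.00968%) and 3 lower (0.029%), which makes 6 in either setting. With same-numbered arrays of a time as a block, it called 4 and, among the brightest, 17 (6 higher, 11 lower). That block was chosen from these same arrays after the data were seen, so its added calls are not independent support. The sham change was near 0 in 4 of the 6 called in either setting without the block. The brain aromatase cyp19a1b, a radial glia gene that makes estrogen, had sham signals of 316, 348 and 383 at 4 h and of 476, 282 and 458 at 11 d (0.18 ± 0.47), against -3.37 ± 0.47 in transected fish. Its other probe sets gave 0.054 and, near the floor, 0.034 in sham fish, and -1.87 and -0.13 in transected fish. The complement gene c4b was at or near the floor in all 6 sham arrays, with 16 to 18.5 at 4 h and 16 to 27.8 at 11 d (0.21 ± 0.37), against 3.18 ± 0.37 in transected fish, a lower bound since all transected 4 h arrays were at the floor. The hyaluronan-binding tnfaip6 (0.16 ± 0.16) and the Notch ligand jag1a (at the floor on all 6 sham arrays) were also near 0 in sham fish, and rose in transected fish by 1.78 ± 0.16 and 0.80 ± 0.08, the second also measured from 4 h arrays at the floor.

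A further contrast, the mean of the sham and the transected change, was added after the data were seen. It called 31 probe sets (0.2%), 11 higher (0.071%) and 20 lower (0.129%). Among the brightest it called 63 (0.61%), 23 higher (0.223%) and 40 lower (0.387%). With same-numbered arrays of a time as a block, which takes account of their shared deviations, it called 6 probe sets, and 4 among the brightest. Without the block, the count was 8 without transected 4 h replicate 2 and 103 without transected 11 d replicate 3.

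**Figure D4:**
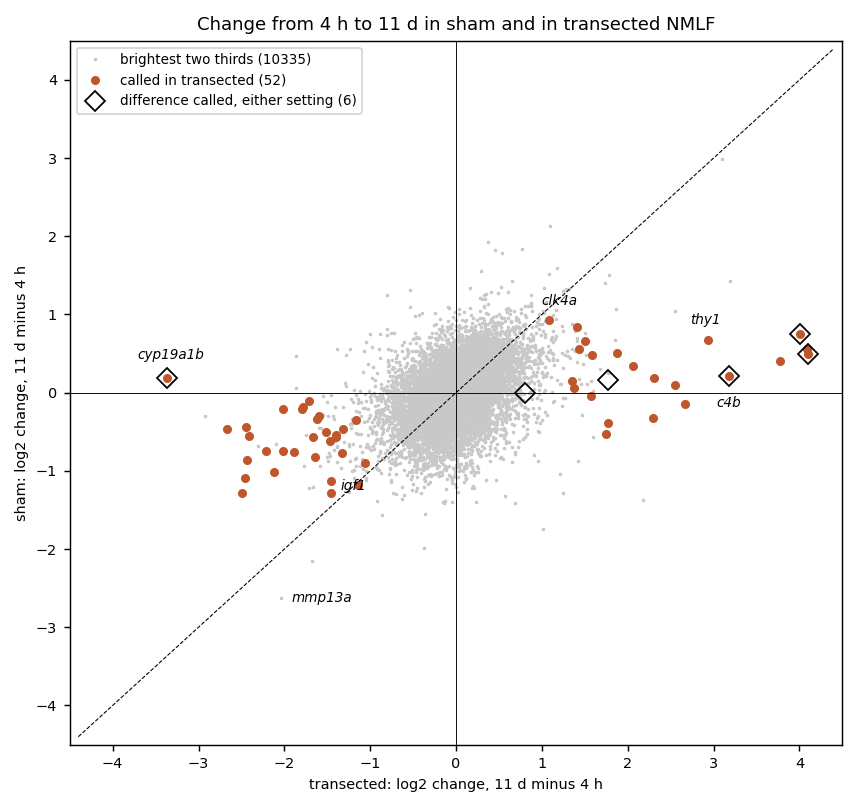
Log2 change from 4 h to 11 d in transected fish (x axis) and in sham fish (y axis) for the brightest 10335 probe sets (points). Filled circles are the 52 of these called in transected fish, and the dashed line marks equal changes. Diamonds are the 6 with a called difference between treatments in either setting, of which tnfaip6 and jag1a are not among the brightest. Of the 52 circles, 46 lie on the same side of 0 in sham fish, and cyp19a1b and c4b lie close to 0 on the sham axis.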

How the data were processed

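The deposited values were 1 signal intensity per probe set and array on a linear scale. Per the labels' protocols, RNA was extracted with the RNeasy Micro kit and amplified with RampUP. The program that combined probes was not stated in the labels. On all but 2 of the 18 arrays the deposited intensity had a trimmed mean of 150 (100.4 on sham 4 h replicate 3). The number of arrays limits the precision.

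All 18 arrays were quantile normalized, set to a floor of 16 and taken to log2. Of 15617 probe sets 115 controls were left out. limma 3.58.1 in R 4.3.3 fitted 6 group means with eBayes (prior df 0.51, and 5.80 with the brightest 10335), and p-values were Benjamini-Hochberg adjusted over 15502 probe sets. A fold change is on this floored scale and may understate dim genes. Of the tested probe sets, 10795 had 1 symbol, 135 several and 4572 none in the platform annotation, and a gene was read from its brightest probe set. The fit was tested on simulated data.

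The 37 gene lists and all rules were chosen with earlier results of these data known. Genes named were up to 12 per direction past the threshold or, failing that, with the smallest unadjusted p among bright probe sets without overlap, up to 4 per list by size of change, and members of the glucocorticoid, early response and clock lists. Others, among them gata2a, gad1b, gnrh2, cahz, gata1a, dnajb1b, unc45b, acads, hmgcs1, tmsb and gap43, were chosen after their values were seen. So were zic2a, coro1a, hbaa1, socs3a and bcl2l10. Alternatives changed the filter, floor, scaling, arrays in the fit, prior and pairing. Within 4 h and within 11 d, every same-numbered pair of a sham and a transected array deviated together (lowest correlation 0.244). The 12 h pairs had correlations of 0.109, -0.014 and 0.141. Same-numbered pairs were also fitted as a random block within each time, 12 h included (duplicateCorrelation, consensus 0.269, and 0.401 for the brightest). This alternative was added after the data were seen. No sequences were used.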

Additional observations from a re-analysis of the deposited data

Results flagged for a closer look

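The change from 4 h to 11 d differed between sham and transected fish, by limma's test of the difference, in 6 probe sets over both settings; the values are the sham minus the transected log2 change. For cyp19a1b the difference was 3.548 (limma adjusted p = 0.0418 among the brightest probe sets and 0.409 over all). With the replicate number as a block over all times its limma adjusted p was 0.0940 among the brightest and 0.666 over all. With same-numbered arrays of a time as a block it was 0.0111 among the brightest and 0.140 over all. The transected signals of cyp19a1b were 581, 312 and 191 at 4 h and 21.8, 34.9 and 41.3 at 11 d. Another cyp19a1b probe set had a transected change of -1.87, which did not pass (limma adjusted p = 0.0594 among the brightest). A further cyp19a1b probe set, near the floor, had a transected change of -0.13. For c4b the difference was -2.971 (0.0418 among the brightest, 0.287 over all), for tnfaip6 -1.62 (0.0302) and for jag1a -0.8017 (0.0302), the last of which was at the floor on all 6 sham arrays. The transected 4 h arrays of jag1a were at the floor as well, where no spread can be seen, so its adjusted p may be too small. A second tnfaip6 probe set was at the floor on all 6 sham arrays and had a transected change of 0. For a pair of probe sets with no symbol here the difference was -3.602 (0.000161) and -3.254 (0.0302). The first was at the floor on all transected 4 h arrays and the second on all sham 4 h arrays. The transected 4 h arrays of c4b were at the floor too, so the adjusted p-values of c4b and of this pair may also be too small. With the number as a block over all times, c4b (0.0812 among the brightest), tnfaip6 and jag1a (0.0771 each) were past the threshold no longer. With the block within a time, tnfaip6 (0.0136) and jag1a (0.0115) passed. There c4b passed among the brightest (0.00387) and not over all (0.100). Groups of 3 arrays are too small for a test of single outlying arrays.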

How the results depend on the processing

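The sham count of 0 became 2 with a floor of 32 and 1 with a floor of 4, and ran from 0 to 10 with 1 array left out. The difference between treatments (4) gave 1 with a replicate block, 2 with the block and the brightest probe sets, 2 on the deposited scale, 1 with a floor of 4, and 1 to 7 with 1 array left out. The transected count (39) was 11 on the deposited scale, 6 with only the arrays compared and 5 to 57 with 1 array left out. The averaged contrast (31) gave 63 with the brightest probe sets, 82 with these and the block, 14 on the deposited scale, 16 with only the arrays compared and 8 to 103 with 1 array left out. Causes were not tested. Same-numbered sham arrays of 4 h and 11 d had deviations that correlated at 0.339, -0.474 and -0.175, so the numbers do not pair the sham times. Same-numbered sham and transected arrays deviated together within 4 h and 11 d, and hardly at 12 h (0.109, -0.014 and 0.141). With the replicate block within each time the sham count was 0, the difference 4 (17 among the brightest), the transected count 38 and the averaged contrast 6 (4 among the brightest). The sham count was also 0 with the block over all times. Of 1991 gene values under alternatives, 5 changed sign, in 4 genes and with 1 array left out: npas4a ran from -0.13 to 1.01, gap43 from -0.16 to 0.31, c4b from -0.019 to 0.38 and tnfaip6 from -0.043 to 0.25. Of 406 list medians, 90 moved by more than the spread between arrays. The deposited scale shifted the median change of the brightest probe sets by 0.23 in sham fish. Signals near the floor of 16 limit dim genes: 2560 probe sets were at it on all 6 arrays.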

Other observations

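Lysosome and autophagy genes had higher signals at 11 d in 22 of 34 genes in sham fish (median log2 change 0.0995) and redox and iron-handling genes in 21 of 28 (median 0.11). On every array 0 genes of either list lay above 4 h, beside a background of 3.79%. Hypoxia and glycolysis genes were higher in 24 of 40 (median 0.038), and neuropeptide and hypothalamic hormone genes were lower in 14 of 23 (median -0.029). None of these genes passed limma's test in sham fish.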
